A study of Mus musculus with 26 samples.

Results

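The regions described here are stretches of chromatin that were open in control myotubes and that no peak list of either knockdown contained. They come from ATAC-seq, in which a transposase inserts adapters into accessible DNA, of C2C12 cells, a mouse myoblast line. The peaks of 6 ATAC lists were merged where they shared at least 1 bp on chromosomes 1 to 19 and X, which gave 231567 regions. Of these, 38505 were called in both control lists, and 1202 of the 38505 were called in none of the 4 knockdown lists. Those 1202 regions, which are 3.12% of the regions of both control lists, are called lost below. The word describes peak calls. The regions were selected on the ATAC calls of all 6 lists, so every ATAC value of theirs is a description and carries no test. By construction, the 1202 lie inside the wider set of regions that each knockdown left uncalled. Of the 38505, 5.85% were in neither siDRR list and 8.21% in neither siSmc3 list, both set against the same control libraries.

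All ATAC libraries were of myotubes, obtained by moving C2C12 myoblasts to a low-serum differentiation medium with horse serum, insulin, transferrin and selenium. The 3 groups were transfected with RNAiMAX and either a control siRNA, siDRR, against the enhancer RNA transcribed from the DRR, or siSmc3, against the cohesin subunit SMC3; each had 2 libraries. ChIP-seq of SMC3, with 2 libraries each, covered myoblasts, myotubes with no transfection in their labels, and myotubes with siDRR. ChIRP-seq, in which probes pull down an RNA with the DNA it touches, was done for the DRR RNA in myotubes with 2 probe pools and 2 libraries each. C2C12 is 1 line, and no separate cultures are named for the replicates, so the spread between libraries may be technical. Remaining DRR or Smc3 RNA after knockdown, and marker genes of myotubes, were not analysed here.

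Accessible chromatin away from gene starts is largely made of enhancers, where transcription factors displace nucleosomes. The DRR is the distal regulatory region, an enhancer upstream of Myod1, which encodes a master regulator of muscle fate, and it is transcribed into an enhancer RNA. Cohesin is a ring-shaped complex, with SMC3 as a core subunit, that extrudes chromatin loops and is halted at sites bound by CTCF. The coordinates of the lists are of mouse build mm9. No genome or gene positions of that build were used here, so the regions are given by position and neither genes nor sequences are assigned to them.

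List lengths bear on which regions count as lost. Control lists held 58138 and 99548 peaks, siDRR lists 69841 and 98592, and siSmc3 lists 80897 and 103056. Each knockdown list was longer than that of control replicate 1, and siDRR replicate 2 was slightly shorter than control replicate 2. Read counts are not in the lists, and the sequencing depth is unknown. The score of each peak, given by the authors' peak caller on a scale that is not stated, started at 30 in each ATAC list. It is used here to rank a peak in its own list: a rank percentile of 100 is the best peak, and a region takes its best peak.

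Lost regions were weak in the control lists that called them. Their scores in control replicate 1 ran from 30 to 164.59 with a median of 39.9, against a median of 136.67 for the 22555 regions called in all 6 lists. In control replicate 2 they ran from 30.04 to 305.12 with a median of 44.6, against 383.2. Median rank percentiles were 31.9 in replicate 1 and 31.7 in replicate 2, so the libraries placed the lost regions at about the same depth in their lists, and 599 of the 1202 ranked higher in replicate 1. In 753 regions the score stayed under 60 in both control lists, and in 82 it reached 60 in both.

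**Figure D1:**
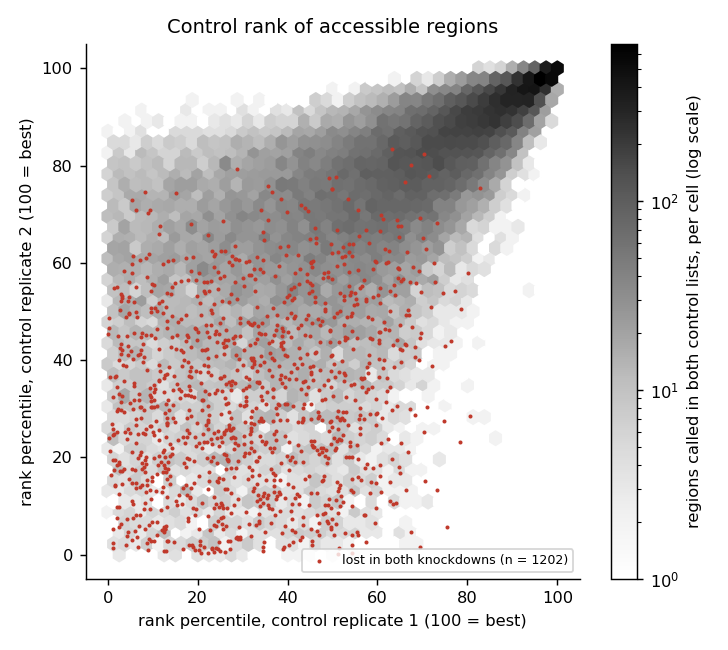
Rank percentile of accessible regions in control replicate 1 (x axis) and control replicate 2 (y axis), with 100 the best peak of a list. Grey cells count the 38505 regions called in both control lists on a log scale, and red points are the 1202 lost regions, which fill the low and middle ranks and leave the best-ranked corner empty.

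The share of control regions that were lost fell with control rank. Among regions whose mean percentile over the control lists was at most 10, 54 of 150 were lost, or 36%. The share was 22.7% in the band from 20 to 30 (307 of 1351), 5.32% from 40 to 50 (191 of 3588) and 0.785% from 60 to 70 (43 of 5478). From 70 to 80, 7 of 6590 regions were lost, and above 80 none of the 6951 and 6870 regions of the last bands was. The 7 regions are the best supported of the set by rank, and 87 lost regions stood above the 50th percentile in both control lists.

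**Figure D2:**
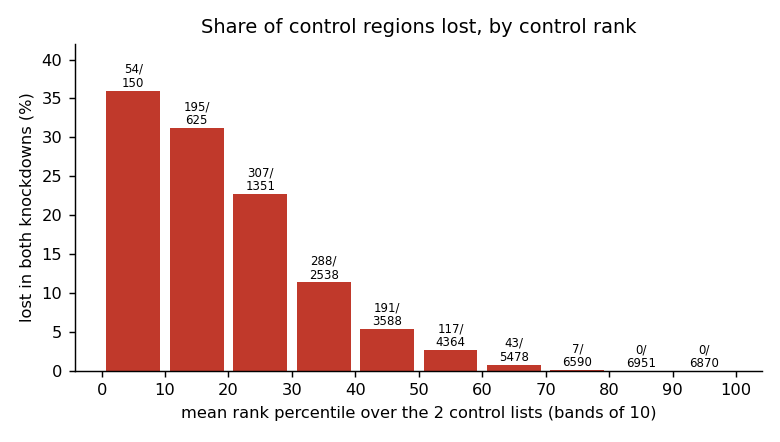
Share of the regions of both control lists that no knockdown list called (y axis, percent), by mean rank percentile over the control lists in bands of 10 (x axis). Numbers over the bars are lost regions over all regions in the band; the share falls from 36% in the lowest band to 0 in the highest bands.

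The regions just outside the rule were those of both control lists that exactly 1 knockdown list called. There were 2408 of them, 6.25% of the 38505, with median percentiles of 39.7 and 48.5 in the control lists, above the lost regions in both. Replicate 2 of siDRR was the calling list in 1451 cases and replicate 2 of siSmc3 in 695. Replicate 1 of siDRR called 114 and replicate 1 of siSmc3 called 148. The longer replicate 2 lists thus held most of the near misses, and leaving out replicate 2 of siDRR raised the number of lost regions to 2687. Leaving out replicate 2 of siSmc3 raised it to 1901.

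Lost regions were compact. Their merged width ran from 340 to 2475 bp with a median of 656 bp, against 1511 bp for regions called in all 6 lists, where merging more peaks widens a region by construction. Single peaks gave a fairer measure: in lost regions the widest peak had a median of 595 bp in control replicate 1 and 406 bp in replicate 2, against 704 and 517 bp over all peaks of those lists. The control peaks overlapped each other by a median of 361 bp, and in 796 of the 1202 regions by at least 50% of the region. In 25 regions the overlap was under 50 bp.

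Most lost regions lay more than 1000 bp from any knockdown peak. The nearest peak of siDRR replicate 1 lay at a median distance of 7630.5 bp and that of replicate 2 at 4720.5 bp. For siSmc3 the medians were 6891.5 and 4897.5 bp. A knockdown peak in at least 1 list lay within 200 bp of 90 lost regions and within 1000 bp of 367, so the 90 nearly touched a peak that a knockdown list still held. At the other end, 139 regions had no knockdown peak within 10000 bp in any list, and 12 had none within 50000 bp.

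**Figure D3:**
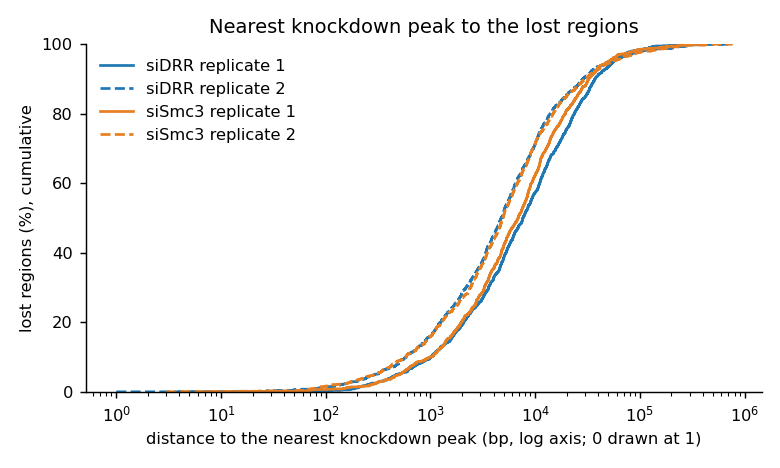
Cumulative share of the 1202 lost regions (y axis, percent) by distance to the nearest peak of each knockdown list (x axis, bp, log axis). Medians lie between 4720.5 and 7630.5 bp. In their lower and middle parts the curves of both replicate 2 lists, which are the longest, lie to the left of those of replicate 1. In the upper tail siSmc3 replicate 2 lies to the right, with a 95th percentile of 54069.9 bp against 49644.7 bp in replicate 1.

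The lost regions were scattered over the genome. Every chromosome tested had some, from 28 on X to 96 each on 1 and 2. As a share of the regions of both control lists they ranged from 2.10% on chromosome 7 (41 of 1953; exact 95% interval 1.51% to 2.84%) to 4.40% on chromosome 15 (90 of 2046; 3.55% to 5.38%). Neighbouring regions are not independent, so the intervals cover counting error only. The median distance to the next lost region was 509284 bp, and 24 of the 1202 had another within 10000 bp.

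Small local groups existed. The densest 1 Mb bin, on chromosome 16 from 30000001 to 31000000, held 6 lost regions among its 41 regions of both control lists. The bin on chromosome 2 from 146000001 to 147000000 held 5 among 17. A further 10 bins held 4 each, 48 held 3, 186 held 2, and 635 held a single one. The named bins were picked as the densest, and whether such groups exceed a random spread was not tested. Stable open chromatin was usually in the neighbourhood: 310 lost regions had a region called in all 6 lists within 10000 bp and 982 had one within 100000 bp. The median distance was 27262 bp, close to the 23606 bp of the regions that 1 knockdown list called. Regions called in all 6 lists lay nearer to one another, at a median of 17855 bp, so such neighbours were not particular to the lost regions.

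The best-ranked lost region was chr10:98345035-98345924, 890 bp wide, with scores of 164.59 and 204.33 in the control lists and percentiles of 82.8 and 75.5. Knockdown peaks lay 1861 and 1924 bp away in the siDRR lists and 1993 and 1569 bp away in the siSmc3 lists, so a neighbouring site was called in all 4. A region called in all 6 lists lay 1780 bp away. The control peaks were 98345035 to 98345924 and 98345106 to 98345766, the one within the other.

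The second, chrX:140400752-140401342, stood alone. Its scores were 97.92 and 290.37, at percentiles of 70.3 and 82.5. The nearest knockdown peaks were 117874 and 70409 bp away under siDRR and 64868 and 80897 bp away under siSmc3, and the nearest region of all 6 lists was 301103 bp away. Its nearest SMC3 peaks lay 29336 and 29578 bp off in the myotube lists.

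The third, chr10:110296167-110297003, had scores of 102.94 and 230.1, at percentiles of 71.55 and 77.9. The fourth was chr6:84138448-84139786, with 88.64 and 257.83, where knockdown peaks came within 969 bp in siDRR replicate 2 and within 886 and 945 bp under siSmc3. The fifth, chr15:93181108-93182162, had the most unequal control scores of these, 76.38 and 305.12. Next came chr3:141387164-141387984 at a mean percentile of 71.4 and chr17:76039815-76040845 at 70.7. These were the 7 above a mean of 70. Within them, replicate 2 ranked the region higher in 5 and replicate 1 in the first and the seventh.

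The remaining named regions had mean percentiles from 69.4 down to 64.6. They include chr10:50596534-50597349 (percentiles 69.6 and 69.3), chr5:15472499-15473297 (80.1 and 57.8), chr9:113960212-113961185 (70.8 and 62.8) and chr11:16168432-16169184 (77.2 and 54.1). Of the 20 best-ranked regions, 16 had the nearest peak of each knockdown list more than 1000 bp away and 13 more than 3000 bp away. The closest approach was at chr6:91057454-91059384, the widest of the 20 at 1931 bp, where a peak of siSmc3 replicate 2 lay 3 bp from it.

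**Figure D4:**
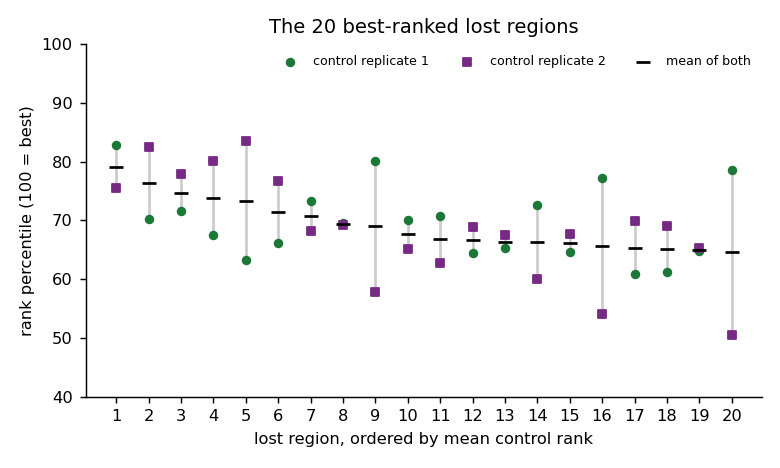
Rank percentile in control replicate 1 (circles), control replicate 2 (squares) and their mean (dashes) for the 20 best-ranked lost regions, in order of the mean. Means run from 79.1 down to 64.6, and single values from 50.6 to 83.5 (y axis starts at 40).

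SMC3 ChIP-seq took no part in choosing the regions, and it met few of them. In the myotube lists, 48 lost regions (3.99%; exact 95% interval 2.96% to 5.26%) overlapped an SMC3 peak in replicate 1 and 56 (4.66%; 3.54% to 6.01%) in replicate 2. Regions called in all 6 ATAC lists overlapped SMC3 in 10.4% and 36.2% of cases, and regions called in exactly 1 knockdown list in 6.77% and 10.4%. The lost regions were lowest in each of the 6 SMC3 lists among these 3 sets. Over all 38505 regions of both control lists the myotube shares were 10.2% and 28.8%. A low share was not particular to them: the 209 regions lost under siDRR that both siSmc3 lists called had 5.26% (2.66% to 9.22%) and 8.61% in the myotube lists, and 1.44% in siDRR replicate 1 of SMC3, below the 1.58% of the lost regions. The 396 lost under siSmc3 that both siDRR lists called had 13.4% and 18.2% in the myotube lists. With 500 bp windows centred on the control peaks, so that widths were equal, the shares were 3.83% and 4.66% for lost regions against 10.0% and 35.3% for those of all 6 lists.

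The lower share was also seen at like control rank, for whole regions whose widths were not matched. Among regions with a mean control percentile from 30 to 40, 5.90% and 6.60% of 288 lost regions overlapped SMC3 in the myotube lists, against 22.4% and 33.4% of 371 called in all 6 ATAC lists. From 50 to 60 the shares were 6.84% and 5.13% of 117, against 15.4% and 30.4% of 1512. These are descriptions: region sets from the same libraries were compared, and no test was run between them. The size of the gap depended on the SMC3 library, since myotube replicate 2 met 3.47 times as many regions of all 6 lists as replicate 1. It also depended on the band. Among regions of all 6 lists ranked from 90 to 100, the share was 8.25% in replicate 1 and 43.0% in replicate 2.

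**Figure D5:**
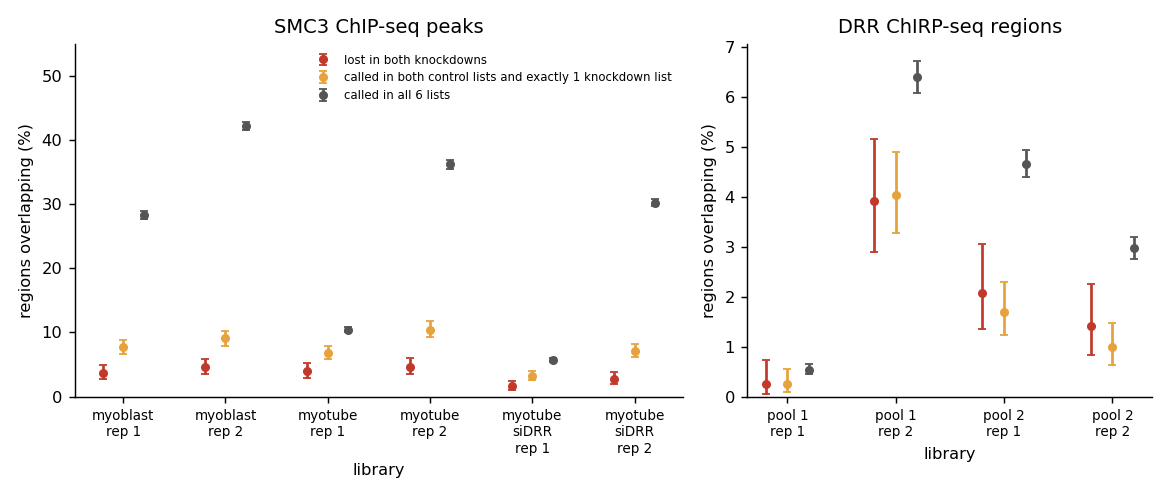
Share of regions (y axis, percent) that overlap an SMC3 peak in each of 6 ChIP-seq lists (left) or a DRR ChIRP region in each of 4 lists (right). Red, lost in both knockdowns (n = 1202); orange, called in exactly 1 knockdown list (n = 2408); grey, called in all 6 ATAC lists (n = 22555). Bars are exact 95% binomial intervals of counting error; the red points lie lowest in every SMC3 list.

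Between myoblasts and myotubes, the share of lost regions with SMC3 differed by less than the spread between libraries. The share was 4.16% ± 0.588 in myoblasts and 4.33% ± 0.471 in myotubes (SD, n = 2 each), a difference of 0.166 percentage points with p = 0.667 by an exact permutation test, two-sided. Regions called in all 6 lists went from 35.2% ± 9.83 to 23.3% ± 18.2, with p = 0.667 in the same exact test. Of the 29 lost regions with SMC3 in both myotube lists, 26 (89.7%) had it in both myoblast lists and 2 in neither. Among regions called in all 6 ATAC lists the share with both myoblast lists was 88.3% (1921 of 2175), so the count is at the level of other open regions. Another 5 lost regions (0.416%) carried SMC3 in both myoblast lists and in neither myotube list. Among regions called in all 6 ATAC lists this share was higher, at 5.34% (1205 of 22555).

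With siDRR, fewer lost regions met SMC3 in either replicate. The numbers were 19 (1.58%) and 33 (2.75%), a mean of 2.16% ± 0.824 against 4.33% ± 0.471 in myotubes (SD, n = 2 each), so the values of the groups did not overlap. The two-sided exact permutation test gave p = 0.333, the smallest that 2 libraries against 2 allow. SMC3 lists were also shorter with siDRR, at 55.7% of the myotube list in replicate 1 and 86.7% in replicate 2. The number of lost regions with SMC3 came to 39.6% and 58.9% of that in myotubes, below the list ratio in both replicates. Regions called in exactly 1 knockdown list were also below it, at 47.2% and 68.1%, and regions called in all 6 ATAC lists gave 54.3% and 83.6%, so a low ratio was not particular to the lost regions. List length and occupancy cannot be told apart for so few regions. The myotube SMC3 libraries have no transfection in their labels, so siDRR cannot be told apart from transfection here either.

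Merging the 4 myotube SMC3 lists gave 30 SMC3 regions of both myotube lists that touched a lost region. With siDRR, 12 of them (40%) were called in both lists and 3 in neither. Over all 13876 such SMC3 regions 51.5% were called in both siDRR lists and 6.45% in neither, so 3 of 30 (10%) rests on too few regions to separate from that share.

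Where SMC3 was present, its peaks were not marginal in myoblasts. Their median rank percentile at lost regions was 64.7 (45 regions) and 59.8 (55 regions) in the myoblast lists, against 37.8 and 43.2 at regions called in all 6 ATAC lists. In the myotube lists it was 32.2 and 41.8, against 46.9 and 39.7. In the siDRR lists it was 32.0 (19 regions) and 69.5 (33 regions), against 48.9 and 39.5. The order thus depended on the library in both of these groups.

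The highest SMC3 rank was at chr1:137840085-137840918. It carried SMC3 at percentiles of 93.1 and 99.3 in myoblasts, 91.2 and 96.9 in myotubes, and 62.0 and 90.3 with siDRR, so the peak was retained. Its ATAC scores were 69.6 and 58.7 in the control lists, and knockdown peaks lay 197 to 1175 bp away. The next, chr15:76834126-76834796, had 91.9 and 76.2 in myotubes and 70.8 and 80.3 with siDRR. Then followed chr16:11417698-11418225 (82.7 and 79.4 in myotubes) and chr1:107933632-107934146 (80.7 and 80.3). The ATAC score of chr16:11417698-11418225 in control replicate 1, 30.03, was at the floor of the list.

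Across the 10 lost regions with the best myotube SMC3 rank, all 10 had SMC3 in both myoblast lists and 8 in both siDRR lists. The exceptions were chr9:115072074-115072699, missing from siDRR replicate 1, and chr1:58213567-58214049, missing from replicate 2. These 10 were picked for strong SMC3, so the 8 does not give the level of the set. Of all 29 lost regions with SMC3 in both myotube lists, 12 (41.4%) had it in both siDRR lists. Among regions called in all 6 ATAC lists that share was 45.6% (991 of 2175). The ATAC means of the 10 ran from 4.07 to 51.8, well under the 20 best-ranked regions. Among those 20, SMC3 was found at 1, chr11:4016376-4017623, in myotube replicate 2 alone at a percentile of 25.2.

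DRR ChIRP regions, summits widened by 250 bp on each side, also met few lost regions. Pool 1 touched 3 of them in replicate 1 (0.250%) and 47 in replicate 2 (3.91%), lists of 3776 and 68812 summits. Pool 2 touched 25 (2.08%) and 17 (1.41%), lists of 23087 and 20295. In regions called in all 6 ATAC lists the shares were 0.541% and 6.40% for pool 1 and 4.66% and 2.97% for pool 2, higher in each list. Over all regions of both control lists they were 0.454% and 5.64% for pool 1 and 3.86% and 2.48% for pool 2. Regions called in exactly 1 knockdown list had 0.249% and 4.03% in pool 1 and 1.70% and 0.997% in pool 2, so against them the lost regions were near equal in pool 1 and higher in both lists of pool 2, with overlapping counting intervals. With equal windows of 500 bp the gap narrowed to 3.08% against 3.10% in pool 1 replicate 2. In pool 2 it narrowed to 1.58% against 2.19% and 1.08% against 1.34%, where regions of exactly 1 knockdown list had 1.16% and 0.581%. Pool 1 replicate 1 had 0.0832% (1 lost region) against 0.279%. The size of the gap thus moved with the width of the regions. LacZ probe and input libraries were not analysed here, so no background stands beside these shares.

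No lost region was met by all 4 ChIRP lists, which allows a share of up to 0.250% of the 1202 (3 counts), and 6 (0.499%) were met by at least 1 list of each pool. Regions called in all 6 ATAC lists had 5 of 22555 (0.0222%) and 94 of 22555 (0.417%), so the 0 cannot be told from the former and the 6 are near the latter. These 6 all involved replicate 2 of pool 1. The best ranked by mean control percentile, not by ChIRP, was chr6:91057454-91059384. Its ChIRP percentiles were 41.25 in pool 1 and 69.98 in replicate 1 of pool 2. At chr17:66556767-66557452 they were 21.6 in pool 1 and 88.2 and 67.7 in pool 2, and at chr1:192306574-192307885 they were 37.9, then 99.0 and 19.7. The other 3 were chr11:112705502-112706254, chr2:166478738-166479456 and chr15:97417633-97418754. In this order they had 0.502, 61.7 and 11.5 in pool 1, and 28.6, 12.1 and 99.1 in replicate 1 of pool 2. None of the 6 overlapped an SMC3 peak in any of the 6 lists. In all, 68 lost regions (5.66%) met a ChIRP region in at least 1 list and 105 (8.74%) an SMC3 peak in at least 1 of 6 lists. Most lost regions thus carried neither. Among regions called in all 6 ATAC lists these shares were 11.5% (2595 of 22555) and 57.8% (13039 of 22555).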

How the data were processed

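The deposited lists of 16 of the 26 samples were used, with 1 list per library; inputs and LacZ probe controls were not analysed here. Each list gives positions and a score per peak, made by the authors' peak caller. Per the submitters' processing notes the build was mm9, and the tools named, with no roles, were MACS2, MACS 1.4.2, Bowtie2 2.2.4 and Bowtie 1.1.1, besides cutadapt 1.12, bcl2fastq 2.17.1 and CASAVA 1.8.2. The sources used here do not give thresholds, read filters or the ATAC read shift. ChIRP lists hold single-base summits.

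Lists were restricted to chromosomes 1 to 19 and X, which removed 1 peak from each ATAC list. From the ChIRP lists it removed 11 and 646 summits in pool 1 and 104 and 91 in pool 2. The list lengths given above are from before this step. Peaks were merged at 1 bp of overlap, and overlaps and ranks were computed with Python 3.11.15, numpy 2.4.6 and pandas 2.3.3. Exact binomial intervals (Clopper-Pearson, 95%) came from scipy 1.17.1 and cover counting error only. Merging, overlap calls, distances and the rule for lost regions were tested on simulated peaks with known answers. Ranks, intervals and permutation tests were not part of that check. Named were the 20 regions of best mean control rank, the 10 of best myotube SMC3 rank with SMC3 in both lists, and those met by both ChIRP pools. Members and lists were chosen with earlier results of these data known.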

Additional observations from a re-analysis of the deposited data

How the results depend on the processing

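The number of lost regions was 560 with the better-scoring 50% of each ATAC list, and 87 of these 560 were among the 1202; with lists cut to the length of the shortest it was 1230, of which 406 were. By construction, the others lay in regions that a knockdown list called when all peaks were kept. Leaving out 1 library or 1 replicate number gave 1317 to 25248: 22840 without control replicate 1, 15166 without control replicate 2, 25248 without replicate 1 and 23440 without replicate 2, since regions of a single list then enter. The share of lost regions with SMC3 in both myotube lists, 2.41%, became 3.04% with the overlap of the control peaks as the region, 4.46% with the better-scoring 50%, 4.39% with lists of equal length, 6.24% with SMC3 in at least 1 library, 1.25% with the better-scoring 50% of SMC3 peaks and 1.91% when the peak had to cover 50% of the region; leaving out libraries gave 1.02% to 4.43%. In the same order the myoblast share, 3.16%, became 4.40%, 4.11%, 4.72%, 5.16% and 2.08%, with 1.69% to 5.87% without a library. The share with a ChIRP region of pool 1, 3.91%, was 0.250% when both libraries were required and 0.192% to 4.23% without a library. For pool 2, 2.25% became 1.35% with the overlap of the control peaks, 3.57% with the better-scoring 50%, 3.25% with equal lengths, 1.41% without widening, 2.995% with 500 bp and 1.25% in both libraries, and 0.879% to 2.30% without a library. The cause of these shifts was not tested. Lost minus stable regions stayed below 0 in each of the 17 alternatives run: for myotube SMC3 the difference was -7.23 percentage points, -30.7 with SMC3 in at least 1 library, -3.35 with the better-scoring 50% of SMC3 peaks, -4.40 with that of ATAC peaks and -23.4 to -5.14 without a library. For pool 2 it was -3.18, and -2.21 with the better-scoring 50%, -2.27 with equal lengths, -0.960 in both libraries, -0.631 with 500 bp windows (added after seeing the data) and -3.78 to -1.27 without a library. The siDRR minus myotube difference at lost regions, -2.16, was -4.82 with the better-scoring 50% of ATAC peaks, -3.29 with equal lengths and -0.582 with the better-scoring 50% of SMC3 peaks, and ran from -3.42 to -0.580 without a library. With the replicate block, added after seeing the data, it was the same -2.16, with p = 0.5 in an exact sign-flip test, the smallest that 2 pairs allow; the labels do not say that a number marks a shared culture.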
